A study of Homo sapiens with 6 samples.

Results

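Ferroptosis is a form of cell death driven by iron-dependent peroxidation of polyunsaturated fatty acids in membrane phospholipids. It is held back by glutathione peroxidase 4, which reduces phospholipid hydroperoxides with glutathione made from imported cystine, and by a separate system that recycles coenzyme Q at membranes. Cells set their reactive iron by the balance of uptake through the transferrin receptor, storage in ferritin, release of ferritin iron by autophagy and breakdown of heme. The 10 genes described here are GPX4, AIFM2 and SLC7A11, which defend against lipid peroxidation, ACSL4 and LPCAT3, which supply its phospholipid substrates, and TFRC, FTH1, FTL, NCOA4 and HMOX1, which handle iron and heme. They were taken from the deposited table by gene symbol, and all 10 were found, each once, among its 24154 genes.

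By their labels, the libraries were made from HCT116 cells, an established line from a human colorectal carcinoma. They had been exposed for 48 h to an siRNA against CPT2 (CPT2 knockdown, n = 3) or to a negative control siRNA (NC, n = 3). CPT2, on the inner mitochondrial membrane, returns fatty acids carried in on carnitine to coenzyme A, so that they can be oxidised. Nothing in the labels ties a replicate to its own culture. P-values thus measure the spread between these libraries, and that spread may be technical.

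Poly(A) RNA was sequenced to 28353790 to 29449380 counts per library. Of 11 colorectal epithelial markers, KRT8, KRT18, EPCAM and CDH1 had a mean of at least 1 CPM (counts scaled to a common library size), while CDX1 and CDX2 had no count in any library. The epithelial marker sums were 1698 to 2332 CPM in CPT2 knockdown libraries and 1645 to 1859 CPM in NC libraries, nearly all KRT8 and KRT18. EPCAM had 2.85 to 4.27 CPM and CDH1 0.90 to 3.09 CPM over all libraries. KRT19, KRT20, VIL1, CEACAM5 and LGALS4 had means under 1 CPM. The endothelial marker CDH5 had 45.7 to 93.0 CPM and the fibroblast marker COL1A1 60.4 to 112 CPM over all libraries, far above EPCAM and CDH1. The identity of the line was not tested beyond these markers. The sums of 6 leukocyte markers were 27.4 to 31.6 CPM in CPT2 knockdown libraries and 22.02 to 24.4 CPM in NC libraries, mostly CD68. CPT2 itself had 19.4, 21.3 and 18.96 CPM in CPT2 knockdown replicates 1 to 3, against 23.6, 28.5 and 29.1 CPM in NC replicates 1 to 3. Its log2 fold change was -0.44 (SE 0.17), with an edgeR adjusted p of 0.338. Without CPT2 knockdown replicate 1, the library that stood apart, it was -0.44. With offsets for transcript GC content and length the log2 fold change of CPT2 was 0.021, and -0.26 with offsets and without that library. On the values so adjusted CPT2 lay at 0.49, -0.29 and -0.22 against the NC mean in CPT2 knockdown replicates 1 to 3, so that the direction with offsets turned on replicate 1. That replicate had a score of 76.6 on the first principal component, against -44.6 to 16.03 in the others. The log2 fold changes of the 10 genes are therefore also given without it. CPM are shares of a library's RNA, so fewer transcripts per cell and more RNA of other genes cannot be told apart.

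Iron sets the translation or stability of some of these messages through iron responsive elements, short stem-loops in untranslated regions that bind the iron regulatory proteins ACO1 and IREB2 when iron is scarce. When bound near the start, these proteins block translation of ferritin messages, and when bound near the end they protect the message of the transferrin receptor from decay. The elements are printed because they mark the members whose message is known to be read by iron. The longest GENCODE 29 transcript of each gene was searched on its sense strand for a C, 5 bases, the loop CAGTGN and 5 bases that pair with the first 5 (A with T, G with C or T). Matches were found in FTH1, FTL and TFRC and in none of the other 7 genes. The capitals mark the loop, and all are written 5′ to 3′ with T for U.
FTH1, 5′ untranslated region, chr11:61967573-61967602, minus strand, GRCh38: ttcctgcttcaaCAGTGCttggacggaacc
FTL, 5′ untranslated region, chr19:48965335-48965364, plus strand: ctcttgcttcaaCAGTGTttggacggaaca
TFRC site 1, 3′ untranslated region, chr3:196050978-196051007, minus strand: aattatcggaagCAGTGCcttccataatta
TFRC site 2, chr3:196050574-196050603: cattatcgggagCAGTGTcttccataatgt
TFRC site 3, chr3:196050509-196050538: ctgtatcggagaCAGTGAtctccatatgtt
TFRC site 4, chr3:196050462-196050491: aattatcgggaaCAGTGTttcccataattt

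FTH1 and FTL each held 1 match and TFRC 4, and no match crossed an exon boundary. By the same rule, 0.127% of 16582 genes held a match in the 5′ untranslated region and 0.717% of 17013 in the 3′ untranslated region, and 5 of these 17013 genes held 2 or more there. The rule is strict, so elements that depart from it may be missed, and the counts need not be the full set of a gene. A match is a description of the sequence, and no binding was measured here.

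None of the 10 genes passed between CPT2 knockdown and NC over all genes tested (edgeR quasi-likelihood test with Benjamini-Hochberg adjustment at 0.05, which called 0.0131% of 15302 genes). All 10 passed the filter on low counts. At an unadjusted p under 0.05 there were 4 of them, GPX4, FTL and HMOX1 higher and TFRC lower in the knockdown, where 14.5% of all tested genes lay under that value, 9.18% higher and 5.29% lower. This count moved with single libraries, to 1 of the 10 genes (GPX4) without NC replicate 2, where 3.23% of all genes lay under that value, and to 8 without CPT2 knockdown replicate 2, where 35.9% did. GPX4, FTL, HMOX1 and TFRC had groups that did not overlap in CPM, which 24.4% of all tested genes showed, 12.2% in each direction. The median log2 fold change was 0.16 over the 10 genes, 6 positive and 4 negative, and 0.0083 over all genes tested. With the GC and length offsets the median of the 10 genes was 0.00094. DESeq2 called none of the 10 and 0.111% of genes. In the authors' deposited table, GPX4 was called up (log2 fold change 0.84, p = 0.000718) and TFRC down (-0.63, p = 0.00858), and the other 8 were called normal. The authors' deposited table called 4.15% of 13635 genes, 2.77% up and 1.38% down, by a p of 0.01 and a fold of 1.5, per its header.

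**Figure D1:**
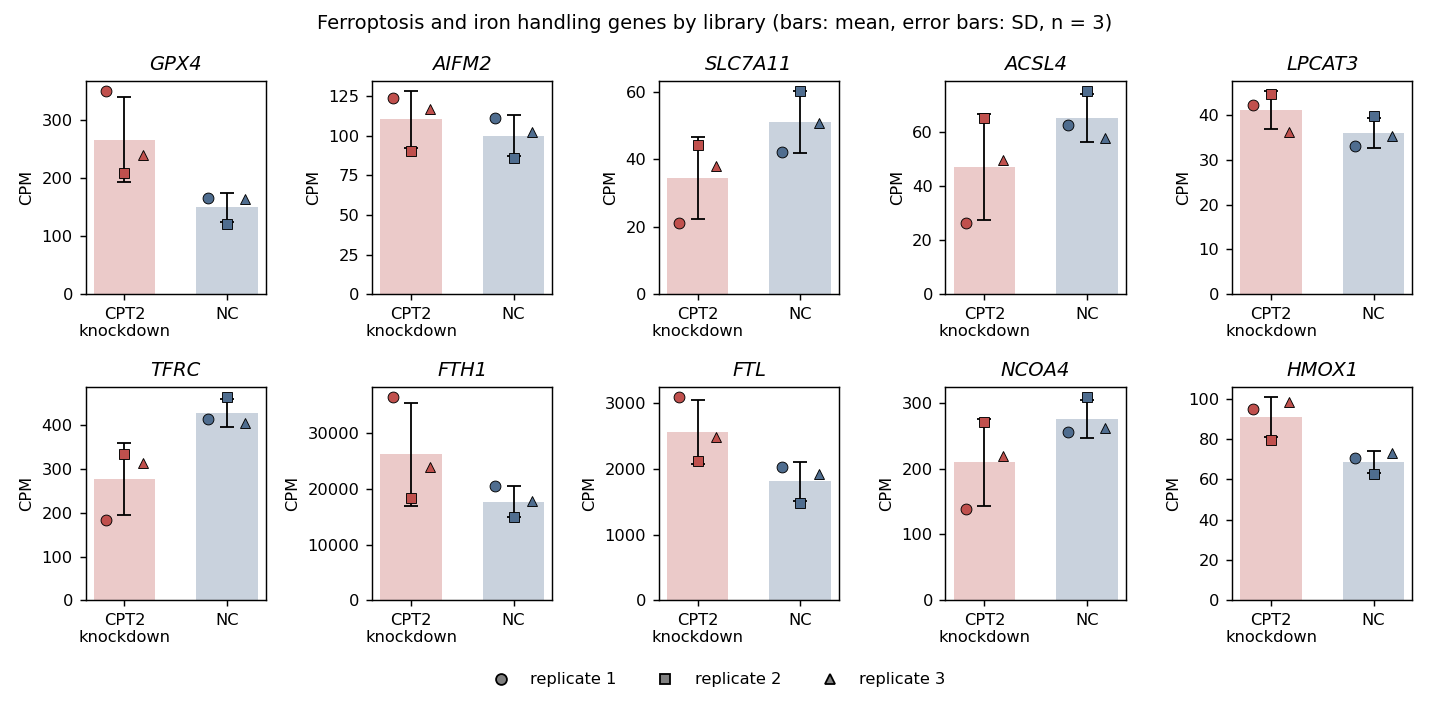
CPM (linear axis from 0) of the 10 genes in 3 CPT2 knockdown and 3 NC libraries, 1 panel per gene; bars are means, error bars SD, and the marker shape gives the replicate number. GPX4, FTL and HMOX1 lie higher and TFRC lower in every CPT2 knockdown library, and the other 6 genes overlap.

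Levels between genes can be compared only per length, for which the authors' FPKM (fragments scaled by transcript length and library size) were used. FTH1 was the most abundant of the 10, at 22980 ± 6180 FPKM in CPT2 knockdown libraries and 17180 ± 2396 FPKM in NC libraries (SD, n = 3 each). FTL followed at 2630 ± 312 FPKM in the knockdown and 2039 ± 307 FPKM in NC, and GPX4 at 299 ± 58.5 FPKM in the knockdown and 186 ± 29.3 FPKM in NC. These 3 did not overlap with their neighbours in the order in either group. NCOA4 and TFRC overlapped each other in both groups, at 54.7 ± 20.3 and 50.3 ± 18.0 FPKM in the knockdown and at 77.7 ± 9.49 and 83.05 ± 7.09 FPKM in NC. HMOX1 came next at 45.2 ± 5.39 FPKM in the knockdown, where it overlapped TFRC, and at 37.3 ± 2.80 FPKM in NC, where it lay below NCOA4. AIFM2 had 30.8 ± 4.21 FPKM in the knockdown and 30.5 ± 3.42 FPKM in NC, and LPCAT3 15.6 ± 1.71 FPKM in the knockdown and 15.4 ± 1.91 FPKM in NC. ACSL4 had 8.53 ± 4.13 FPKM in the knockdown, overlapping SLC7A11, and 12.3 ± 2.23 FPKM in NC, overlapping LPCAT3. SLC7A11 was lowest in both groups, at 3.28 ± 1.33 FPKM in the knockdown and 5.23 ± 1.02 FPKM in NC.

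Of the defence genes, GPX4 had the largest difference of the 10. GPX4 (ENSG00000167468, chromosome 19, 1103926 to 1106791, plus strand, GRCh38) encodes the selenoprotein that reduces phospholipid hydroperoxides. It had 349.7, 209.2 and 240.3 CPM in CPT2 knockdown replicates 1 to 3, against 165.4, 121.0 and 163.2 CPM in NC replicates 1 to 3. Every knockdown library was above every control, with replicate 1 the highest. The log2 fold change was 0.83 with an SE of 0.22 (95% interval 0.34 to 1.32), a fold of 1.78, with an edgeR adjusted p of 0.338. The exact permutation p, 2-sided and on CPM, was 0.1, which is the lowest possible with 3 libraries a group. Without CPT2 knockdown replicate 1 the log2 fold change was 0.58 (edgeR adjusted p = 0.487).

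AIFM2 (ENSG00000042286, chromosome 10, 70098223 to 70132934, minus strand) encodes FSP1, the oxidoreductase that regenerates reduced coenzyme Q at membranes. It had 124.1, 90.1 and 116.7 CPM in CPT2 knockdown replicates 1 to 3, against 111.4, 86.2 and 102.5 CPM in NC replicates 1 to 3. The groups overlapped, and replicate 2 was the lowest library in each. Its log2 fold change was 0.14 (95% interval -0.25 to 0.53, edgeR adjusted p = 0.634) and 0.038 without CPT2 knockdown replicate 1. On library size alone it was -0.0024, where the median of all genes was -0.13.

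SLC7A11 (ENSG00000151012, chromosome 4, 138164097 to 138242349, minus strand) encodes the cystine-glutamate exchanger that supplies cysteine for glutathione. Its levels were 20.9, 44.3 and 37.8 CPM in CPT2 knockdown replicates 1 to 3, against 42.01, 60.1 and 50.8 CPM in NC replicates 1 to 3. Only NC replicate 1 lay within the knockdown range, and CPT2 knockdown replicate 1 was the lowest. SLC7A11 had a log2 fold change of -0.57 with an SE of 0.27 (95% interval -1.19 to 0.054, edgeR adjusted p = 0.339), and -0.32 without CPT2 knockdown replicate 1. The antisense gene SLC7A11-AS1 overlaps 865 of its exon bases and was not among the deposited genes.

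Both genes that supply lipid substrates had overlapping groups. ACSL4 (ENSG00000068366, chromosome X, 109624244 to 109733403, minus strand) encodes the acyl-CoA synthetase that activates arachidonic and adrenic acid. It had 26.2, 64.9 and 49.6 CPM in CPT2 knockdown replicates 1 to 3, against 62.5, 74.9 and 57.6 CPM in NC replicates 1 to 3. Replicate 1 of the knockdown was less than any other library, while replicate 2 lay among the controls. Its log2 fold change was -0.47 with an SE of 0.30 (edgeR adjusted p = 0.392), -0.19 without CPT2 knockdown replicate 1 and -0.79 without replicate 2.

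LPCAT3 (ENSG00000111684, chromosome 12, 6976186 to 7018510, minus strand) encodes the acyltransferase that places polyunsaturated acyl groups into lysophospholipids. It had 42.2, 44.5 and 36.3 CPM in CPT2 knockdown replicates 1 to 3, against 33.01, 39.7 and 35.3 CPM in NC replicates 1 to 3. The groups overlapped, with knockdown replicate 3 among the controls. LPCAT3 had a log2 fold change of 0.19 (95% interval -0.18 to 0.56, edgeR adjusted p = 0.513), and 0.16 without CPT2 knockdown replicate 1. EMG1, on the opposite strand, shares 3100 exon bases with LPCAT3 and had 1109 to 1686 counts per library, against 991 to 1249 for LPCAT3. The library protocol names no strand marking, so reads from the shared bases cannot be told apart.

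Of the iron genes, TFRC was lower in every knockdown library. TFRC (ENSG00000072274, chromosome 3, 196027183 to 196082189, minus strand) encodes transferrin receptor 1, the route of transferrin-bound iron into the cell, and its message carries the 4 stem-loops printed above. Its levels were 183.6, 335.8 and 313.1 CPM in CPT2 knockdown replicates 1 to 3, against 414.3, 464.4 and 406.5 CPM in NC replicates 1 to 3. The log2 fold change was -0.63 with an SE of 0.22 (95% interval -1.12 to -0.13), a fold of 0.648, with an edgeR adjusted p of 0.338 and an exact 2-sided permutation p of 0.1. Without CPT2 knockdown replicate 1 it was -0.41 (edgeR adjusted p = 0.487).

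FTH1 and FTL encode the heavy and light chains of ferritin, the shell that stores iron, and the heavy chain carries the ferroxidase. FTH1 (ENSG00000167996, chromosome 11, 61959718 to 61967660, minus strand) ranked 1 to 3 by count among all genes in every library. It took up 3.19%, 1.82% and 2.37% of counts in CPT2 knockdown replicates 1 to 3, against 2.10%, 1.58% and 1.89% in NC replicates 1 to 3. In CPM it had 36406, 18383 and 23839 in CPT2 knockdown replicates 1 to 3, against 20501, 14890.0 and 17724 in NC replicates 1 to 3. The groups overlapped, since knockdown replicate 2 lay below NC replicate 1. Its log2 fold change was 0.57 with an SE of 0.26 (95% interval -0.014 to 1.15, edgeR adjusted p = 0.338) and 0.24 without CPT2 knockdown replicate 1.

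FTL (ENSG00000087086, chromosome 19, 48965301 to 48966878, plus strand) had 3094, 2130.3 and 2486 CPM in CPT2 knockdown replicates 1 to 3, against 2035, 1479 and 1928 CPM in NC replicates 1 to 3. All 3 knockdown libraries were above the controls, replicate 2 by less than the spread within NC. FTL had a log2 fold change of 0.50 with an SE of 0.19 (95% interval 0.081 to 0.92, edgeR adjusted p = 0.338) and 0.34 without CPT2 knockdown replicate 1. The FPKM ratio of FTH1 to FTL was 10.1, 7.44 and 8.36 in CPT2 knockdown replicates 1 to 3, against 8.66, 8.68 and 7.99 in NC replicates 1 to 3 (exact 2-sided permutation p = 0.9). The ratio of FTH1 to TFRC was 993, 273 and 383 in the same knockdown libraries and 247, 160.5 and 220.1 in the same NC libraries, with no overlap (exact 2-sided permutation p = 0.1). For FTH1 to NCOA4 it was 904, 235 and 380 in the knockdown and 276, 166 and 235 in NC, with overlap (exact 2-sided permutation p = 0.2). These ratios were not adjusted for GC content, in which the genes differ. GENCODE 29 lists 25 pseudogenes named after FTH1 and 16 after FTL, none of them among the deposited genes, so how the authors' counting divided reads of such copies is uncertain. BEST1 overlaps FTH1 by 1267 exon bases on the opposite strand and had 2472 to 4088 counts in CPT2 knockdown and 2300 to 13111 counts in NC, far below the 459497 or more of FTH1.

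NCOA4 and HMOX1 release iron, from ferritin and from heme. NCOA4 (ENSG00000266412, chromosome 10, 46005088 to 46030714, minus strand), the receptor that delivers ferritin to autophagosomes, had 138.3, 270.3 and 219.0 CPM in CPT2 knockdown replicates 1 to 3. It had 255.3, 308.1 and 261.2 CPM in NC replicates 1 to 3, and the knockdown's replicate 2 was inside this range. Its log2 fold change was -0.39 with an SE of 0.23 (edgeR adjusted p = 0.37), -0.18 without CPT2 knockdown replicate 1 and -0.63 without replicate 2. HMOX1 (ENSG00000100292, chromosome 22, 35380361 to 35394214, plus strand) encodes the stress-induced heme oxygenase. It had 94.8, 79.7 and 98.2 CPM in CPT2 knockdown replicates 1 to 3, against 70.6, 62.8 and 73.1 CPM in NC replicates 1 to 3. Every knockdown library was above every control, and replicate 1 was not the highest. HMOX1 had a log2 fold change of 0.40 with an SE of 0.15 (95% interval 0.063 to 0.74, edgeR adjusted p = 0.338) and 0.36 without CPT2 knockdown replicate 1, the least change of any member with non-overlapping groups.

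**Figure D2:**
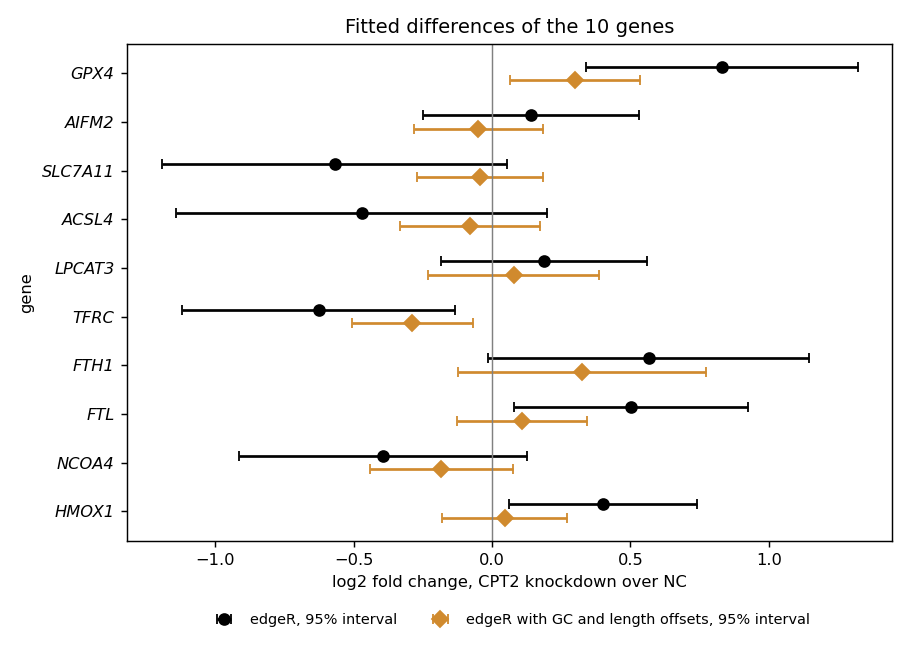
Log2 fold change of CPT2 knockdown over NC (horizontal axis) for the 10 genes, by edgeR (black) and by edgeR with offsets for transcript GC content and length (orange), with 95% intervals. GPX4 and TFRC have intervals clear of 0 in both fits, FTL and HMOX1 only in the first, and no gene passed the adjusted threshold in either.

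Among the 10 genes, log2 fold changes were positive for those with GC-rich transcripts and negative for those with AT-rich transcripts, though none passed and 6 had overlapping groups. The longest transcripts of SLC7A11, ACSL4, TFRC and NCOA4, the 4 members with negative log2 fold changes, had 35.4%, 37.4%, 41.5% and 43.1% GC. The other 6 ranged over 50.1% in FTH1, 52.8% in LPCAT3, 56.1% in AIFM2, 56.3% in FTL, 58.1% in HMOX1 and 62.5% in GPX4. Across the 10 genes, which share their libraries, GC content and log2 fold change had a Pearson's r of 0.91 and a Spearman's rho of 0.82. All tested genes with a GC value, 13207, were split into 10 deciles by GC content to show the level around each member. Decile 1, with SLC7A11 and ACSL4, had a median log2 fold change of -0.41 (quartiles -0.57 and -0.20), and SLC7A11 lay at its lower quartile. Decile 3, with TFRC and NCOA4, had -0.27 (quartiles -0.47 and -0.075), so that TFRC at -0.63 lay below its lower quartile. Decile 6, with FTH1, had 0.0030 (quartiles -0.20 and 0.23), below FTH1 at 0.57, and decile 7, with LPCAT3, 0.14. Decile 8, with AIFM2, FTL and HMOX1, had 0.26 (quartiles 0.058 and 0.43), and FTL at 0.50 lay above its upper quartile. Decile 10, with GPX4, had 0.48 (quartiles 0.31 and 0.65), and GPX4 at 0.83 lay above its upper quartile.

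**Figure D3:**
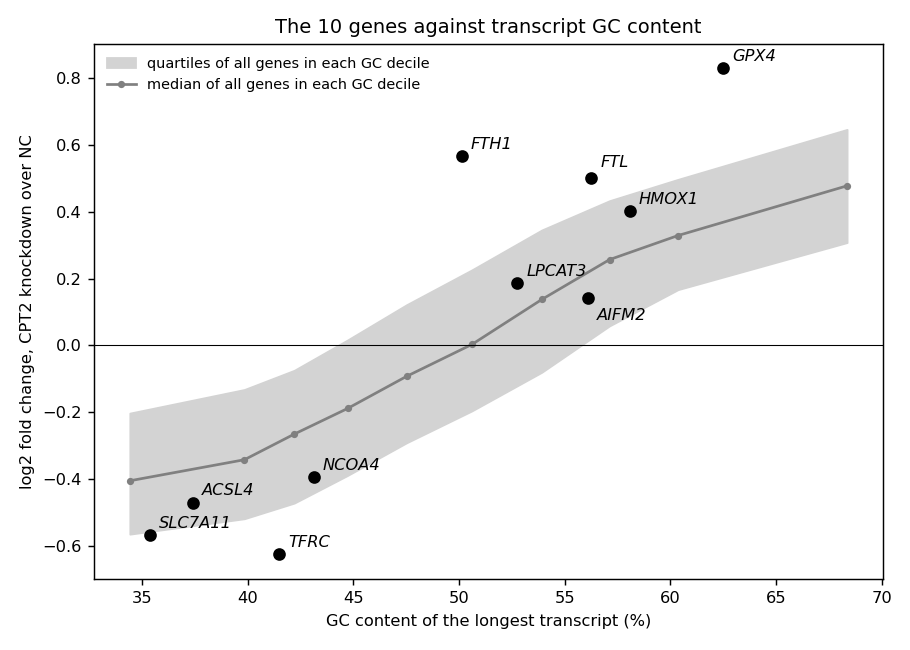
Log2 fold change of CPT2 knockdown over NC (vertical axis) against GC content of the longest transcript (horizontal axis, %) for the 10 genes (black points); the grey line and band are the median and quartiles of all genes in each GC decile. GPX4, FTH1 and FTL lie above the quartiles of their decile and TFRC below, SLC7A11 lies at the lower quartile, and the other 5 lie between them.

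With offsets that remove each library's trend on transcript GC content and length, 0 of the 10 genes passed (edgeR, adjusted p of 0.365 to 0.867; 0.0227% of all genes were called). GPX4 and TFRC had an unadjusted p under 0.05, as did 13.1% of all genes in that fit, and DESeq2 without offsets called 0 of the 10. GPX4 had a log2 fold change of 0.30 (95% interval 0.064 to 0.53) and TFRC -0.29 (95% interval -0.51 to -0.069). FTH1 had 0.33 (95% interval -0.12 to 0.77) and NCOA4 -0.18 (95% interval -0.44 to 0.075). The intervals of the other 6 held 0, with values of 0.11 for FTL, 0.078 for LPCAT3, 0.045 for HMOX1, -0.043 for SLC7A11, -0.049 for AIFM2 and -0.079 for ACSL4. On these adjusted values GPX4 lay 0.39, 0.37 and 0.13 above the NC mean in CPT2 knockdown replicates 1 to 3, against 0.091, -0.073 and -0.018 in NC replicates 1 to 3. TFRC lay at -0.42, -0.28 and -0.17 in the same knockdown libraries, against 0.036, -0.018 and -0.018 in the same NC libraries. GPX4 and TFRC were the members whose groups then did not overlap, as in 19.9% of the 13207 genes. FTH1 was at 0.74, -0.012 and 0.15 in CPT2 knockdown replicates 1 to 3, against 0.15, -0.11 and -0.037 in NC replicates 1 to 3, so that replicate 1 alone lay above the controls by more than their spread. Leaving that library out of the fit with offsets gave 0.25 for GPX4 and -0.23 for TFRC, and 0.068 for FTH1 (edgeR adjusted p = 0.561, 0.561 and 0.919).

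**Figure D4:**
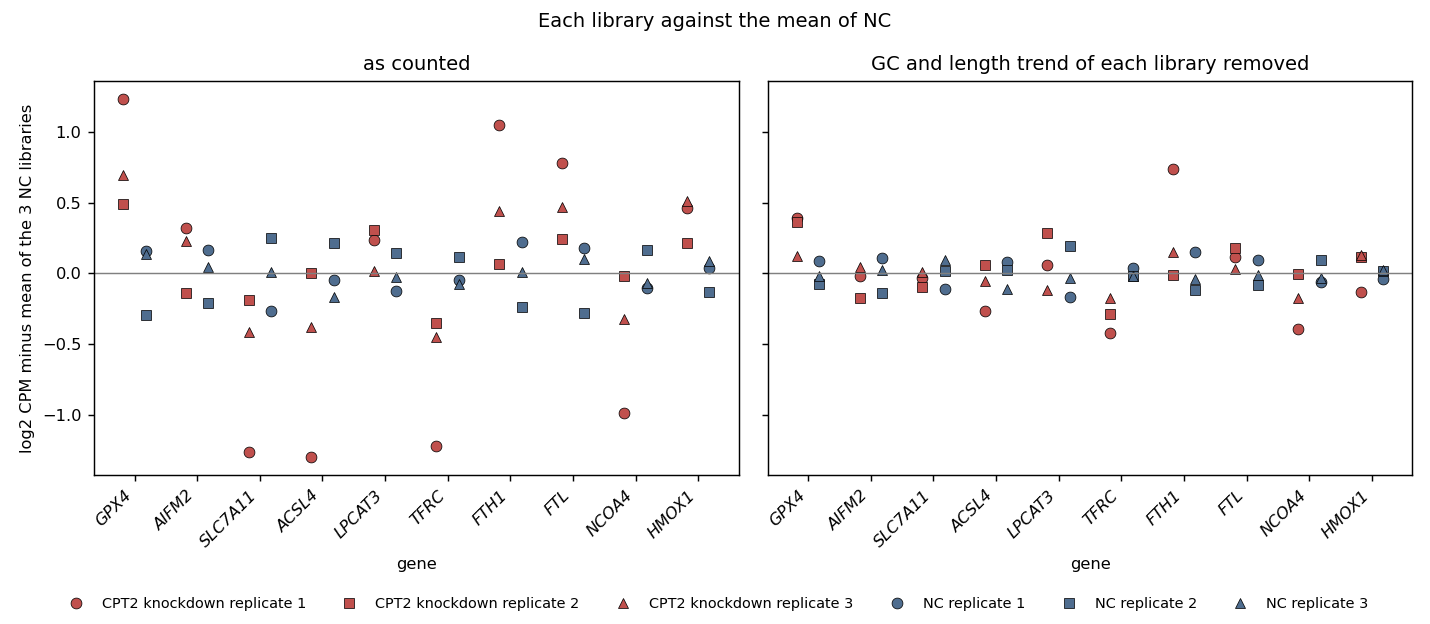
Log2 CPM minus the mean of the 3 NC libraries (vertical axis) for the 10 genes in each library, as counted (left) and with each library's trend on GC content and length removed (right). CPT2 knockdown replicate 1 lies farthest from 0 for SLC7A11, ACSL4, TFRC, NCOA4, GPX4, AIFM2, FTH1 and FTL as counted, and after removal GPX4 and TFRC keep the groups apart.

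A list of nuclear-retained or intron-retaining transcripts was chosen to reflect RNA quality, and 12 of 15 were tested. MALAT1, NEAT1 and KCNQ1OT1 were not among the deposited genes, and those tested had a median GC content of 38.3%. The list had a median of -0.80, 0.025 and -0.31 in CPT2 knockdown replicates 1 to 3, on the log2 scale against the NC mean. In NC replicates 1 to 3 the median was -0.11, 0.18 and -0.077. On values adjusted for GC content and length, these medians were 0.19, 0.078 and 0.010 in CPT2 knockdown replicates 1 to 3, against -0.017, 0.032 and -0.024 in NC replicates 1 to 3, where CPT2 knockdown replicate 1 was the highest and no longer the lowest. The part of RNA quality in the differences of the 10 genes was not tested. The share of counts from mitochondrial DNA was 17.0%, 15.6% and 8.99% in CPT2 knockdown replicates 1 to 3, against 10.5%, 10.8% and 10.002% in NC replicates 1 to 3. As counted, the 10 genes did not follow this order of the knockdown libraries. On the adjusted values GPX4 (0.39, 0.37 and 0.13) and TFRC (-0.42, -0.28 and -0.17) did in their distance from the NC mean. So did ACSL4 (-0.26, 0.063 and -0.054), though with replicate 2 on the other side of that mean, and the other members did not. A link between this share and the 10 genes was not tested. When limma-voom was given weights for library quality, 4 of the 10 genes passed, GPX4 (0.63, adjusted p = 0.0278), TFRC (-0.44, 0.0313), FTL (0.40, 0.0377) and HMOX1 (0.45, 0.0291), where 16.5% of all genes were called, 9.23% higher and 7.27% lower.

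Around the 10 genes, 7 lists of genes of the same pathways were counted in the same fit, and none of their tested genes passed (smallest edgeR adjusted p 0.338). KEAP1, NFS1 and TXNRD1 stand on 2 lists each. The genes named below are those with the smallest p-values of their list, counts at a p under 0.05 are unadjusted, and 14.5% of all tested genes had a p under 0.05.

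Of 31 further ferroptosis defence genes, 1 was higher and 1 lower at a p under 0.05, with a median log2 fold change of 0.042. EEFSEC, the elongation factor that inserts selenocysteine into proteins such as GPX4, had 27.1 ± 0.909 CPM in the knockdown and 19.8 ± 0.484 CPM in NC (log2 fold change 0.45). TXNRD1, the cytosolic thioredoxin reductase and itself a selenoprotein, had 518 ± 174 CPM in the knockdown and 775 ± 57.0 CPM in NC (log2 fold change -0.58). COQ9, a coenzyme Q biosynthesis factor, had 0.32. With the offsets the median was 0.066, and the values were 0.066 for EEFSEC, -0.37 for TXNRD1 and 0.29 for COQ9. Of 26 genes for lipid peroxidation and its substrates 24 were tested, with 1 higher and 1 lower at a p under 0.05 and a median of 0.012. FADS2, the delta-6 fatty acid desaturase, had a log2 fold change of 0.35, FAR1, which makes fatty alcohols for ether lipids, -0.76, and MBOAT7, a lysophosphatidylinositol acyltransferase, 0.46. With the offsets the median was -0.054, and FADS2 had 0.18, FAR1 -0.27 and MBOAT7 0.18.

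Of 20 genes for iron uptake, transport and export 14 were tested, with 3 higher and 2 lower at a p under 0.05 and a median of 0.0012. TFR2, the second transferrin receptor, had 47.8 ± 12.8 CPM in the knockdown and 29.8 ± 1.67 CPM in NC (log2 fold change 0.68), the opposite direction to TFRC. SLC39A14, a carrier of iron not bound to transferrin, had 136 ± 31.6 CPM in the knockdown and 199 ± 13.4 CPM in NC (log2 fold change -0.55). MCOLN1, a lysosomal cation channel, had 0.58. The offsets gave a median of -0.0027, and TFR2 had 0.30, SLC39A14 -0.40 and MCOLN1 0.12. SLC40A1, the iron exporter ferroportin, was detected with 2 counts in CPT2 knockdown replicate 2 and 4 in NC replicate 1 and 0 in the other libraries, and FTMT, mitochondrial ferritin, had 0 in all.

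Of 22 genes for iron sensing and iron-sulphur clusters, 1 was higher and 1 lower at a p under 0.05, with a median of -0.026. IREB2, iron regulatory protein 2, had 58.4 ± 20.5 CPM in the knockdown and 88.8 ± 13.0 CPM in NC (log2 fold change -0.61). FBXL5, the iron-sensing ubiquitin ligase subunit that targets IREB2, had -0.48, and FDX2, a mitochondrial ferredoxin, 0.79. With the offsets the median was 0.18, and IREB2 had -0.19, FBXL5 -0.21 and FDX2 0.20. Of 16 genes of heme metabolism, 1 was higher and 1 lower at a p under 0.05, with a median of 0.22. BLVRB, a biliverdin reductase downstream of heme oxygenase, had 107 ± 15.0 CPM in the knockdown and 73.8 ± 8.28 CPM in NC (log2 fold change 0.53). BACH1, the heme-sensing repressor of HMOX1 and the ferritin genes, had 24.9 ± 7.45 CPM in the knockdown and 38.4 ± 3.26 CPM in NC (log2 fold change -0.62). UROD, a heme synthesis enzyme, had 0.33. Under the offsets the list had a median of -0.017, and BLVRB had 0.14, BACH1 -0.21 and UROD 0.11.

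HMOX1, FTH1, FTL and SLC7A11 are known targets of the oxidative stress factor NRF2, and 14 other NRF2 targets had a median of 0.17, with 3 higher and 1 lower at a p under 0.05. EPHX1, an epoxide hydrolase, had 0.59 and TALDO1, transaldolase, 0.36. After the offsets its median was 0.014, and EPHX1 had 0.26 and TALDO1 0.0052. The 10 genes of ferritin turnover and autophagy had a median of -0.098 and none under 0.05, with -0.82 for RB1CC1 and 0.26 for ULK1, both of the autophagy initiation complex, and -0.40 for PIK3C3, the class III phosphatidylinositol 3-kinase. With the offsets the median was -0.13, and RB1CC1 had -0.44, ULK1 -0.088 and PIK3C3 0.057, so that the sign of ULK1 and PIK3C3 turned.

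The genes most like GPX4, TFRC and HMOX1 over the 6 libraries were picked by Pearson's r of log2 CPM among 9539 genes with a mean of at least 10 CPM. The libraries carry the GC trend, and many genes follow it, so the likeness is a description of these libraries. GPX4 was followed by CNN2, FARSA, MRPS34, RBM10 and GAPDH (r of at least 0.997), and TFRC by GNA12, CCNT1, PTPRJ, HPS5 and SENP2 (at least 0.998). HMOX1 was followed by BLVRB (0.998), DBP, BSG, PHF5A and B3GNTL1 (at least 0.991).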

How the data were processed

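The authors deposited raw counts and FPKM for each gene and library, per the file headers. Other values in the deposited table, a p-value, a log2 fold change and a call, come from the authors' DESeq2 comparison. Their processing notes list HISAT2, TopHat2, Bowtie2, StringTie, DESeq2, edgeR and the build GRCh38, with no role for any. Libraries were prepared from oligo(dT)-selected mRNA with random hexamers, and the labels' protocols name no strand marking.

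After 17 stray lines were left out, 24154 genes remained, 4180 of them new loci of the authors, which held 5.32% to 7.18% of counts. The count test was edgeR 4.0.16 under R 4.3.3 (filterByExpr, 15302 genes kept, TMM, robust quasi-likelihood F-test, Benjamini-Hochberg adjustment over all genes at 0.05). CPM use TMM-scaled library sizes, except the marker sums, which use total counts. Log2 CPM have a prior count of 2, and fold changes are CPT2 knockdown over NC. GC content and length come from the longest GENCODE 29 transcript, and offsets from a loess (span 0.3) of each library on both. The alternatives were RLE, library size alone, no filter, 1 CPM in 3 libraries, DESeq2 1.42.0, limma-voom and limma-trend on log2(FPKM + 1) (limma 3.58.1), the replicate number as a block, offsets, quality weights and leaving out each library. FPKM fold changes on the log2(FPKM + 1) scale understate those of low genes. The fits were also run on simulated counts with known fold changes, with and without a set GC trend. No length trend was simulated, and the outcome is not reported here.

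The members and lists were chosen with earlier results of these data known, and so were the offsets, weights and the library left out. The rule for named genes took all 10 members and CPT2, of each list the genes past the threshold and otherwise at most the 3 with the smallest p, and 5 genes most like GPX4, TFRC and HMOX1. Of the NRF2 targets, 1 gene that the rule took is not reported here. SLC40A1 and FTMT were named after their values were seen. Marker lists had 11 epithelial, 6 fibroblast, 6 leukocyte, 4 endothelial and 5 erythroid genes. Fibroblast sums were 79.3 to 115 CPM in CPT2 knockdown and 65.1 to 85.7 CPM in NC, nearly all COL1A1. Endothelial sums were 47.01 to 69.98 CPM in CPT2 knockdown and 77.5 to 94.7 CPM in NC, nearly all CDH5, and erythroid sums 0.247 to 0.554 CPM in CPT2 knockdown and 0.137 to 0.308 CPM in NC.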

Additional observations from a re-analysis of the deposited data

How the results depend on the processing

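Over 18 alternatives, the number of the 10 genes past an adjusted p of 0.05 stayed at 0 except for 3 (GPX4, TFRC and FTL; adjusted p = 0.0475, 0.0482 and 0.0493) with the replicate number as a block and 4 with quality weights in limma-voom. The block called 633 of all genes (4.14%), and 678 with the GC and length offsets, under which none of the 10 passed. The labels do not say whether the numbers mark pairs, and the deviations of same-numbered libraries correlated at 0.25, 0.36 and 0.0065. Each CPT2 knockdown library correlated best with the NC library of its own number. NC replicate 3, however, correlated best with CPT2 knockdown replicate 1 (0.091), so a pairing stays uncertain. The 2 genes called over all became 17 by DESeq2, 1 by limma-voom, 0 by limma-trend on FPKM (2055 had an unadjusted p under 0.05), 2525 with quality weights, 4 with the offsets and without CPT2 knockdown replicate 1, and 1 to 5 when a library was left out. AIFM2 was reversed on library size alone (-0.0024) and with the offsets (-0.049, -0.048 with the block and -0.061 without CPT2 knockdown replicate 1). ACSL4 was reversed, at 0.0045, with the offsets and without CPT2 knockdown replicate 1. CPT2 was reversed, at 0.021, with the offsets, but not with the offsets and the block (-0.014) or with the offsets and without CPT2 knockdown replicate 1 (-0.26), and it passed with quality weights (-0.50, adjusted p = 0.0313). The other 8 of the 10 genes kept their direction under all 18 alternatives, though not their size. With the offsets and without CPT2 knockdown replicate 1, GPX4 fell to 0.25, TFRC to -0.23, FTL to 0.11, NCOA4 to -0.087 and FTH1 to 0.068. With the offsets and the block, SLC7A11 was -0.043 and HMOX1 0.041. By limma-trend on FPKM LPCAT3 was 0.018, where the median of all genes was -0.072.

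Leaving out each library gave 0.58 to 0.98 for GPX4, -0.79 to -0.41 for TFRC, 0.34 to 0.48 for HMOX1 and 0.24 to 0.77 for FTH1. LPCAT3 was 0.12 without CPT2 knockdown replicate 2, and AIFM2 ranged over 0.038 to 0.26, lowest without CPT2 knockdown replicate 1 and highest without replicate 2. HMOX1 was 0.26 on library size alone and LPCAT3 0.046, where the median of all genes was -0.13. Members at an unadjusted p under 0.05 numbered 1 to 8 when a library was left out, where 3.23% to 35.9% of all genes lay under that value. The lowest count of a member in a library was 530.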
